A study of Mus musculus with 8 samples.

Results

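The genes described here are 41 transcripts of the non-collagen extracellular matrix, its modifying enzymes and mesenchymal regulators, which fibroblasts and the mesenchyme of the developing heart valves are known to express. They were listed by gene symbol out of 53465 genes in the count table, with earlier results of these data known. All 41 were among the 15388 genes that passed a filter on low counts. The question was whether the fall of Thbs4, a matrix glycoprotein of the thrombospondin family, was shared by the other thrombospondins and by other mesenchyme genes. RNA-seq of poly(A) RNA was performed on mouse heart ventricles at embryonic day 15.5, 1 ventricle per library by the series' description. There were 4 libraries with the genotype label WT and 4 with the label Nrg-1flox;Cdh5-CreERT2, which are called Flox-labelled below. In the second line, a Cre recombinase that is active after tamoxifen and is driven by the endothelial Cdh5 promoter is meant to excise a loxP-flanked part of Nrg1, the gene of the secreted growth factor neuregulin-1. Strain, any alleles of the WT embryos, and the dose and day of tamoxifen are not given in the sources used here. The labels do not say whether the libraries of a group came from separate litters, so p-values measure the spread between these libraries only.

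The extracellular matrix of the fetal heart is a network of fibrillar collagens, elastic fibres and proteoglycans, laid down largely by fibroblasts and valve interstitial cells. Elastic fibres are built from an elastin core on a scaffold of fibrillin microfibrils, which fibulins help to assemble and lysyl oxidases cross-link. Thrombospondins, periostin and SPARC are matricellular proteins, which bind the matrix, growth factors and cell surface receptors and tune how cells respond to them rather than bearing load.

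Library totals ranged from 16761763 to 24144272 expected counts, and every gene of the set held at least 90 counts in every library. Levels are given as CPM, the share of a library's counts on a common scale after adjustment by TMM factors, which lay between 0.988 and 1.015. The targeted gene did not bear out the labels, as Nrg1 was at 4.08 to 5.46 CPM in WT against 5.36 to 6.82 CPM in Flox-labelled libraries (log2 fold change 0.34, SE 0.12, edgeR FDR 0.311), so each direction below is that of the libraries labelled Nrg-1flox;Cdh5-CreERT2. Gene-level counts include every cell type and exons outside the floxed part. Cardiomyocyte markers were present, as the 10 genes examined summed to 46858 to 53338 CPM, and all 10 fibroblast and all 10 valve mesenchyme markers passed the filter. Sex-linked transcripts were mixed, as the WT libraries had a Y-linked sum of 69.3 to 171 CPM and the Flox-labelled libraries one of 42.9 to 120 CPM, and the library numbered 4 had the highest sum of each group. In 7 of the 8 libraries more than 20 counts of Xist, which female cells transcribe, stood beside more than 20 counts of the Y-linked genes, although the series describes 1 ventricle per library. How many embryos each library represents was not tested, and n counts libraries.

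Promoter sequences of Thbs4, Thbs3 and Thbs2 are shown because Thbs4 is the member on which the comparison turns and the others are set beside it. For Thbs1 no promoter was matched, so it is absent here. Each is the 250 bases before the RefSeq transcript start on GRCm38.p6, read 5′ to 3′ on the strand of the gene. The bases that follow the start were found in a GENCODE transcript of the gene for Thbs4 and Thbs3 but not for Thbs2. Capitals mark matches on either strand to a TATA box (TATAAA), a GC box (GGGCGG) or a binding site of TEAD factors (GGAATG). Thbs4 lies at chr13:92794819-92795068 (minus strand), Thbs3 at chr3:89214930-89215179 (plus strand) and Thbs2 at chr17:14694263-14694512 (minus strand).
Thbs4: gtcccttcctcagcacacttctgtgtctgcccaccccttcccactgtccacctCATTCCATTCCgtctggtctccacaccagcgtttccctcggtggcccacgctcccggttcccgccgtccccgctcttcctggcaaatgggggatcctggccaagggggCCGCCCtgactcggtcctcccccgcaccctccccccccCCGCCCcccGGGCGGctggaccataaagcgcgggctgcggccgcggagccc
Thbs3: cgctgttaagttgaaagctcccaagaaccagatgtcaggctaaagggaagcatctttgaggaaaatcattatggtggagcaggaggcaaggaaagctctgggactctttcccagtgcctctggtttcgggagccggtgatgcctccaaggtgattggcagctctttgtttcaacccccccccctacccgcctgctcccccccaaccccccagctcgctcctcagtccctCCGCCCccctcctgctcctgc
Thbs2: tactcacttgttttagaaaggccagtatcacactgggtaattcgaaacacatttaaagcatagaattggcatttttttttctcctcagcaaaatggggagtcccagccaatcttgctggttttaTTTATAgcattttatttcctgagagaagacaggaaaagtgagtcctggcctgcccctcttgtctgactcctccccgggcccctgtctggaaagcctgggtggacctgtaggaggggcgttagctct
The window of Thbs4 held 3 GC boxes and 2 TEAD matches that overlap by their end base, that of Thbs3 held 1 GC box, and that of Thbs2 held 1 TATA box match. Thbs4 had the window richest in G and C of these genes, at 70.8%, against 58.8% for Thbs3 and 46.8% for Thbs2. Of 27025 promoters of the same length, 32.9% held a GC box, 13% a TATA box and 12.6% a TEAD match, and an E-box (CANNTG, not capitalised) was present in 66%. Promoters were matched for 24 of the 41 genes, of which 13 held a GC box, 4 a TATA box, 4 a TEAD match and 17 an E-box. A match describes these letters and not binding by a factor.

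Thbs4 fell in the Flox-labelled libraries, and the other thrombospondins did not pass the main test. Thbs4 (ENSMUSG00000021702, GRCm38 chromosome 13, 92751590 to 92794818, minus strand) encodes a pentameric thrombospondin of tendon and muscle matrix that is known to be induced in the loaded heart. Its level was 66.1, 67.6, 58.4 and 70.1 CPM in WT libraries 1 to 4 and 45.1, 41.6, 38.5 and 53.9 CPM in Flox-labelled libraries 1 to 4. The groups did not overlap, and Flox-labelled library 4 was the nearest to WT. Means were 65.6 ± 5.03 CPM in WT against 44.8 ± 6.67 CPM in Flox-labelled libraries (SD, n = 4). The level thus fell by 32.1%, with a fitted log2 difference of -0.56 (SE 0.085, edgeR FDR 0.017). Since Thbs4 was already known to be lower when the genes were chosen, its fall is the starting point and not a new finding. The call was lost without WT library 2 (FDR 0.0651), without Flox-labelled library 2 (FDR 0.0519) or without Flox-labelled library 3 (FDR 0.0534), and the log2 fold change stayed between -0.65 and -0.49 when any 1 library was left out. With the Y-linked sum as a covariate it was -0.44 (FDR 0.116). That sum was itself lower on average in Flox-labelled libraries (72.4 ± 33.4 CPM against 119 ± 41.7 CPM in WT, SD). A fit with it thus cannot fully separate the sum from the group.

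Thbs1, a trimeric thrombospondin that activates latent TGF-beta and restrains blood vessel growth, was the most abundant per exonic length at 18.6 CPM per kb, beside 16.8 for Thbs4, 13.7 for Thbs2 and 2.87 for Thbs3. Thbs1 was at 105, 105, 113 and 127 CPM in WT against 108, 112, 105 and 128 CPM in Flox-labelled libraries 1 to 4. The groups overlapped throughout, and library 4 was highest in both. Its log2 fold change was 0.01, with a 95% confidence interval of -0.14 to 0.16 (FDR 0.986), so a fall as large as that fitted for Thbs4 lay outside the interval. Thbs2, the other trimeric member, which also limits vessel growth and shapes collagen fibrils, was at 93.6, 96.0, 108 and 108 CPM in WT against 82.8, 92.6, 82.9 and 102 CPM in Flox-labelled libraries. Here too the groups overlapped, through Flox-labelled library 4, and the log2 fold change of -0.18 (SE 0.067) had an unadjusted p of 0.0199 and an edgeR FDR of 0.356. Without a filter on low counts Thbs2 was called lower (edgeR FDR 0.0421), in a fit that called 184 genes lower against 33 in the main fit. Thbs3, a pentameric member, was at 13.78, 13.9, 15.7 and 14.3 CPM in WT against 13.75, 13.5, 13.1 and 12.8 CPM in Flox-labelled libraries. Its groups were separate by a margin of 13.78 against 13.75 CPM, and its log2 fold change was -0.12 (95% confidence interval -0.26 to 0.03, FDR 0.585). Thbs3 shares 6.59% of its exonic bases with Mtx1 on the opposite strand. The fifth thrombospondin, Comp, is no member of the set and was looked at after its values were seen. It was at 3.33, 2.08, 2.95 and 3.43 CPM in WT against 1.92, 2.43, 1.73 and 2.94 CPM in Flox-labelled libraries, a log2 fold change of -0.39 (95% confidence interval -0.84 to 0.05, FDR 0.55) from 37 to 78 counts per library.

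**Figure D1:**
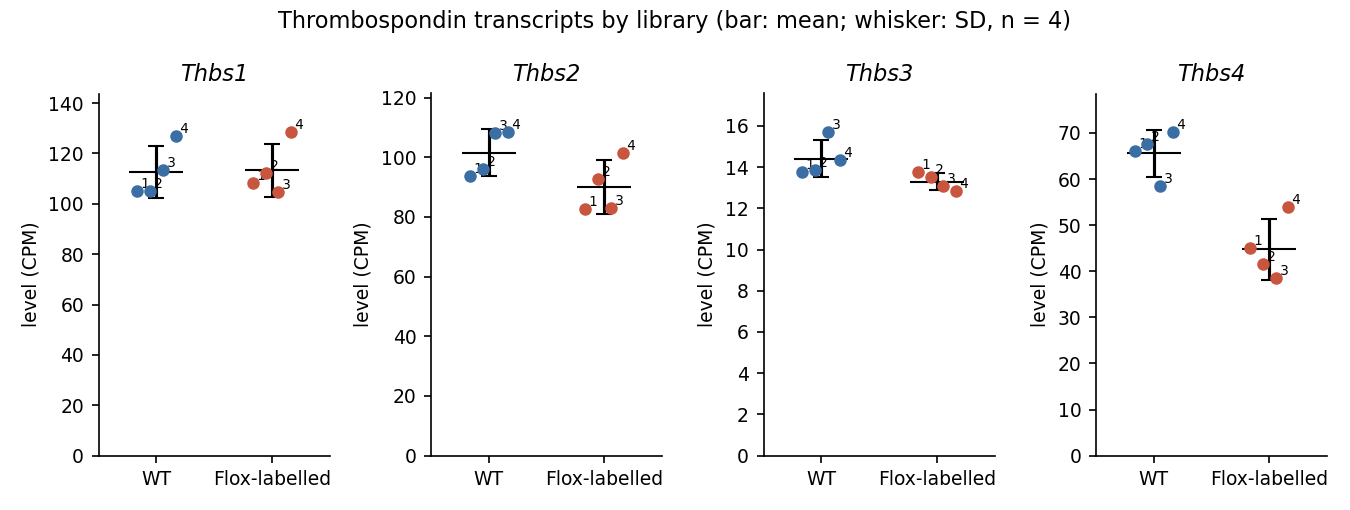
Levels of Thbs1, Thbs2, Thbs3 and Thbs4 in CPM (vertical axes from 0, a scale for each gene) in the WT and Flox-labelled libraries, each point 1 library with its number, the bar the mean and the whisker the SD (n = 4). For Thbs4 the Flox-labelled points lie at 38.5 to 53.9 CPM, below the WT points at 58.4 to 70.1 CPM, whereas for Thbs1 the groups cover the same range.

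Whether the change of Thbs4 differed from that of each other thrombospondin was tested on the ratio of their CPM within each library, with exact two-sided permutation tests over the 70 possible assignments of libraries to groups, which can give no p below 0.0286. Because Thbs4 was chosen with its fall in these libraries known, these p-values carry that choice and are no independent support for a difference. The ratio of Thbs4 to Thbs1 was 0.629, 0.643, 0.516 and 0.554 in WT and 0.416, 0.371, 0.368 and 0.420 in Flox-labelled libraries 1 to 4. Every Flox-labelled ratio was below every WT ratio, a log2 difference of -0.57 (exact permutation p = 0.0286, adjusted over 3 pairs 0.0571). Thbs4 to Thbs2 gave 0.707, 0.703, 0.540 and 0.647 in WT and 0.545, 0.449, 0.464 and 0.531 in Flox-labelled libraries. These overlapped between WT library 3 and Flox-labelled library 1, with a log2 difference of -0.38 (exact permutation p = 0.0571, adjusted 0.0571). The ratio to Thbs3 was 4.80, 4.87, 3.73 and 4.90 in WT and 3.28, 3.08, 2.95 and 4.20 in Flox-labelled libraries, with a log2 difference of -0.44 (exact permutation p = 0.0571, adjusted 0.0571). No pair therefore passed 0.05 after adjustment. Against the summed level of the 10 fibroblast markers, which was 5995 to 6980 CPM in WT against 5876 to 6923 CPM in Flox-labelled libraries, Thbs4 had a log2 difference of -0.54, given as a description because it restates that fall beside a sum that differed little. In bulk RNA, fewer cells that express Thbs4 cannot be told apart from less Thbs4 RNA per cell.

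Over the whole set, Thbs4 was the single gene of 41 that was called lower at FDR below 0.05, where 0.214% of all tested genes were, and 0 of 41 were called higher, where 0.312% of all tested genes were. DESeq2 also called 0 higher, but called 3 lower (Thbs4, Fbln1 and Postn), among 95 genes called lower in all. Without a filter on low counts edgeR called 6 lower, among 184 genes called lower in all, against 33 in the main fit. With the replicate number as a block, edgeR called 3 lower (Thbs4, Eln and Fbln5). At an unadjusted p below 0.05 there were 15 lower, or 36.6%, against 5.41% of all tested genes, and 0 higher against 5.13%. Groups that did not overlap were found for Thbs3 and Thbs4 alone among the lower members, 4.88% against 2.98% of all genes, and for 0 members in the higher direction, against 3.07%. The fitted log2 fold change was below 0 in 35 of 41, or 85.4%, against 50.6% of all tested genes. The median was -0.12 over the set, with a range from -0.65 for Eln to 0.15 for Ogn, and -0.0012 over all tested genes. Small differences in the lower direction were thus frequent in the set, and few were as large as that of Thbs4. Some marker lists given below leaned the same way, with atrial markers lower in 8 of 8 cases and endothelial and endocardial ones in 10 of 12. Epicardial markers leaned the other way, with 7 of 8 higher. The members are not independent of each other, as the values per library show below. The set was also chosen with earlier results of these data known, so its shares beside those of all genes are a description. Leaving out both libraries numbered 4, a choice made after seeing the data, gave a median of -0.11, with 31 of 41 below 0 and 2 called, Thbs4 (-0.62, edgeR FDR 0.00249) and Fbln1 (-0.26, edgeR FDR 0.0336). The Y-linked sum was itself lower on average in Flox-labelled libraries, so a fit with it as a covariate cannot fully separate it from the group. In that fit the median was 0.0049, with 19 of 41 below 0 and 0 called. At an unadjusted p below 0.05 there were 2 lower and 5 higher. The 15 lower at that p became 7 without Flox-labelled library 1 or without Flox-labelled library 3, and 9 without WT library 3 or without WT library 4.

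**Figure D2:**
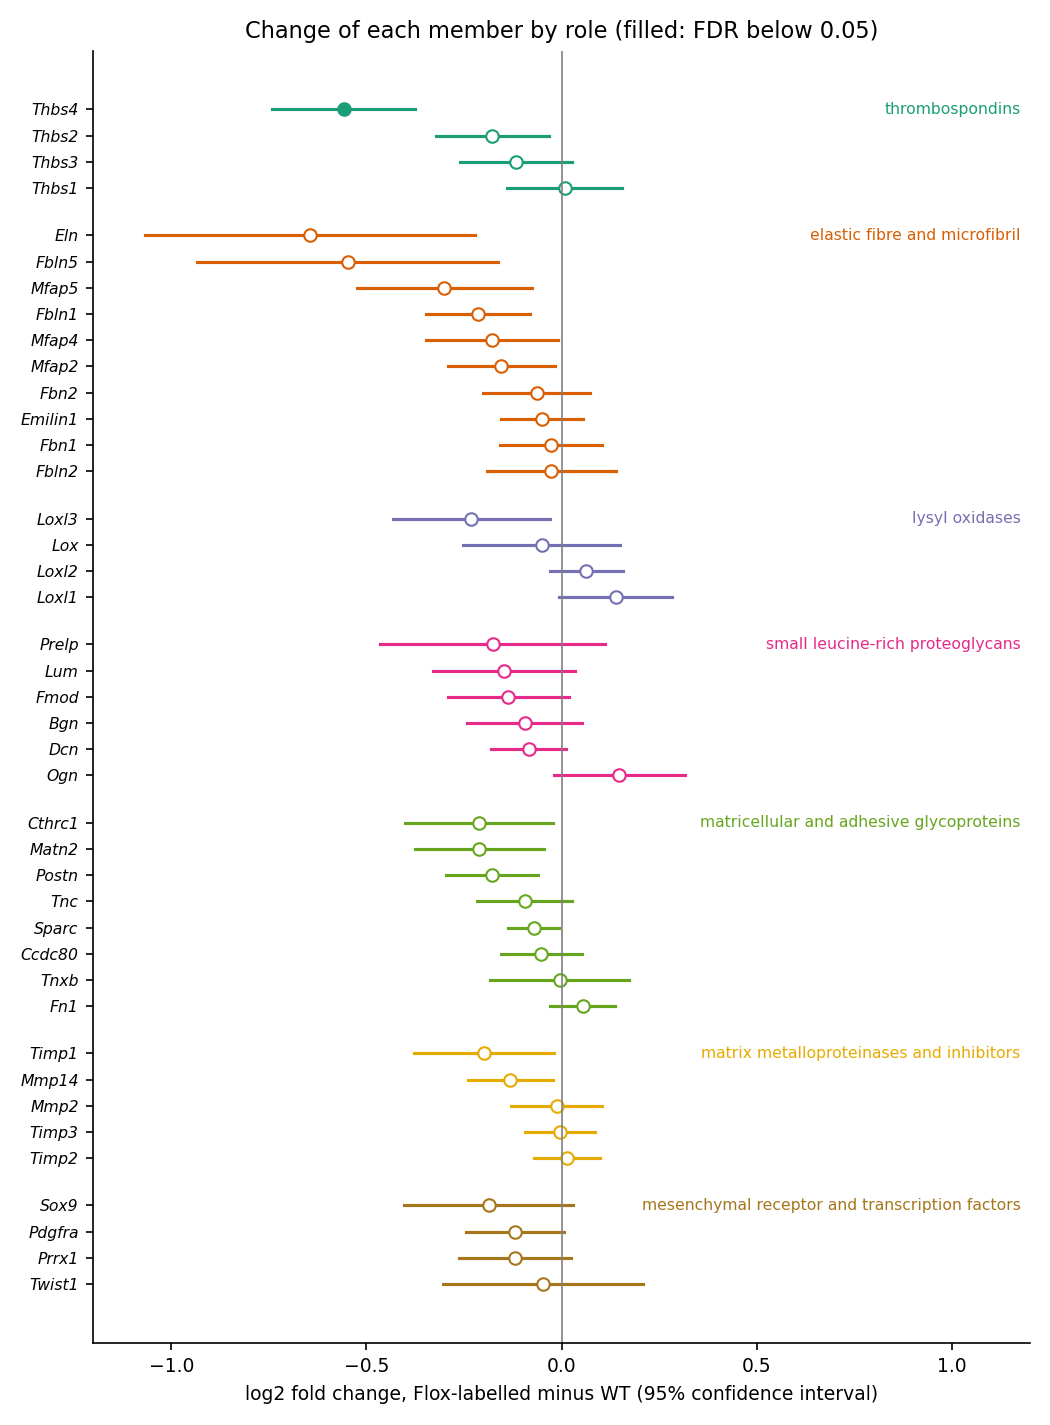
Fitted log2 fold change (Flox-labelled minus WT, horizontal axis) of each of the 41 genes, grouped by role, with bars for the 95% confidence interval and a filled point for FDR below 0.05. Thbs4 is the single filled point at -0.56, Eln and Fbln5 lie at -0.65 and -0.55 with wider intervals, and 35 of 41 points lie below 0.

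The elastic fibre and microfibril genes were lower in 10 of 10 cases (median log2 fold change -0.17), 6 of them at an unadjusted p below 0.05 and 0 at FDR below 0.05. Their summed level was 2139 to 3026 CPM in WT against 1852 to 2472 CPM in Flox-labelled libraries. Eln (chromosome 5, 134702593 to 134747323) encodes elastin, the core protein of the elastic fibre, and was the most abundant of them per exonic length at 113 CPM per kb. Its level was 967, 780, 1456 and 1250 CPM in WT against 496, 638, 754 and 961 CPM in Flox-labelled libraries 1 to 4. The mean of Eln was 1113 CPM in WT against 712 CPM in Flox-labelled libraries, beside 2630 and 2122 CPM for the sum of the 10 genes. Most of the fall of that sum thus lay in Eln. The spread of Eln within each group was wide, and Flox-labelled library 4 exceeded WT library 2. The fitted log2 fold change of -0.65 was the largest of the set, yet with its SE of 0.2 it did not pass (edgeR FDR 0.216). Fbln5 (chromosome 12, 101746565 to 101819055) encodes fibulin-5, which tethers elastin and lysyl oxidases to the microfibril. It was at 105, 84.3, 140 and 133 CPM in WT against 60.1, 68.0, 78.4 and 112 CPM in Flox-labelled libraries, a log2 fold change of -0.55 (SE 0.18, edgeR FDR 0.264). As for Eln, WT libraries 3 and 4 were highest and Flox-labelled library 1 lowest, while Flox-labelled library 4 lay above WT libraries 1 and 2. With the Y-linked sum as a covariate the log2 fold change was -0.29 for Eln (edgeR FDR 0.663) and -0.16 for Fbln5 (edgeR FDR 0.761). That fit cannot fully separate the sum from the group. Without a filter on low counts Eln and Fbln5 passed (edgeR FDR 7.02e-05 and 0.00026), where 184 genes were called lower against 33 in the main fit. Their log2 fold changes there were nearly those of the main fit (-0.65 and -0.55). Both also passed with the replicate number as a block (edgeR FDR 0.0313 and 0.0341), though the labels do not say what that number stands for.

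Fbln1, which encodes fibulin-1 of valve matrix and basement membranes, was at 144, 150, 147 and 156 CPM in WT against 117, 131, 119 and 148 CPM in Flox-labelled libraries. Flox-labelled libraries 1, 2 and 3 lay below all of WT and library 4 among them (log2 fold change -0.21, SE 0.062, edgeR FDR 0.184). The microfibril-associated glycoprotein genes followed. Mfap2, whose product binds fibrillin, was at 81.5, 87.6, 84.6 and 91.3 CPM in WT against 68.4, 82.5, 72.8 and 86.7 CPM in Flox-labelled libraries (-0.15, edgeR FDR 0.414). Mfap5, of the related second glycoprotein, was low, at 7.40, 6.27, 7.39 and 7.60 CPM in WT against 6.52, 5.96, 5.46 and 5.30 CPM in Flox-labelled libraries (-0.30, edgeR FDR 0.303). Mfap4, a fibrinogen-related microfibril protein gene, was at 69.4, 73.7, 81.7 and 88.5 CPM in WT against 61.9, 69.8, 66.8 and 79.0 CPM in Flox-labelled libraries (-0.18, edgeR FDR 0.442). All of these overlapped between the groups. The fibrillin genes Fbn1 (-0.03) and Fbn2 (-0.06), which encode the microfibril backbone, and Fbln2 (-0.03) and Emilin1 (-0.05) were near 0, with lower interval bounds of -0.16, -0.20, -0.19 and -0.16. Fbn1 shares 20.1% of its exonic bases with Gm9913 on the opposite strand, and its counts were not whole in 100% of the libraries.

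Among the lysyl oxidases, which cross-link collagen and elastin, 2 of 4 were lower (median 0.01), and the summed level was 435 to 478 CPM in WT against 450 to 523 CPM in Flox-labelled libraries. Loxl2 was the most abundant per exonic length (62.0 CPM per kb), at 332, 312, 325 and 342 CPM in WT against 334, 344, 324 and 369 CPM in Flox-labelled libraries (0.06, 95% confidence interval -0.03 to 0.16, edgeR FDR 0.654). Loxl3 was at 8.51, 6.89, 8.39 and 7.95 CPM in WT against 6.47, 7.01, 6.72 and 6.83 CPM in Flox-labelled libraries (-0.23, edgeR FDR 0.398). The groups of Loxl3 overlapped through WT library 2, and the gene shares 11.6% of its exonic bases with Htra2 on the opposite strand. Loxl1 (0.14) and Lox (-0.05) had unadjusted p-values above 0.05.

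Of the small leucine-rich proteoglycans, which coat collagen fibrils and limit their width, 5 of 6 were lower (median -0.12), with 0 at an unadjusted p below 0.05. Bgn (biglycan) was the most abundant per exonic length (43.9 CPM per kb), at 259, 259, 280.0 and 307 CPM in WT against 242, 253, 243 and 297 CPM in Flox-labelled libraries (-0.09, edgeR FDR 0.689). Prelp, which anchors basement membranes to connective tissue, was at 7.63, 6.62, 7.73 and 10.2 CPM in WT against 7.28, 6.42, 6.62 and 8.30 CPM in Flox-labelled libraries (-0.18, edgeR FDR 0.704). Library 4 was the highest of its group for both genes. Lum was at -0.15, Fmod at -0.14 and Dcn at -0.08, and Ogn, which encodes osteoglycin, was the one proteoglycan above 0 (0.15, 95% confidence interval -0.02 to 0.32).

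The matricellular and adhesive glycoproteins were lower in 7 of 8 cases (median -0.08), 4 of them at an unadjusted p below 0.05 and 0 at FDR below 0.05. Postn (chromosome 3, 54361109 to 54391037) encodes periostin, a product of cardiac fibroblasts and valve mesenchyme. It was at 756, 684.0, 785 and 816 CPM in WT against 673, 683.7, 615 and 717 CPM in Flox-labelled libraries. Flox-labelled libraries 1, 2 and 3 lay below all of WT, the second by a narrow margin, and library 4 lay above WT library 2 (-0.18, SE 0.055, edgeR FDR 0.225). Sparc, which encodes a collagen-binding protein, was the most abundant of the set per exonic length (414 CPM per kb), at 1592, 1595, 1599 and 1640 CPM in WT against 1494.5, 1536, 1479 and 1607 CPM in Flox-labelled libraries. Its difference was small, at -0.07 (edgeR FDR 0.422), and its spread within groups was the smallest of the set, with an SD of 0.040 log2. Matn2, a filament-forming adaptor of the matrix, was at 14.8, 14.2, 16.9 and 16.5 CPM in WT against 13.6, 13.2, 12.5 and 14.7 CPM in Flox-labelled libraries (-0.21, edgeR FDR 0.334). Cthrc1, a secreted protein of activated fibroblasts, was at 11.4, 12.6, 12.6 and 13.0 CPM in WT against 10.2, 10.2, 9.98 and 12.7 CPM in Flox-labelled libraries (-0.21, edgeR FDR 0.414). In both, Flox-labelled libraries 1, 2 and 3 lay below all of WT and library 4 did not. Tnc (-0.09), Ccdc80 (-0.05) and Tnxb (-0.01) were nearer to 0, and Fn1, which encodes fibronectin, was at 0.05 (95% confidence interval -0.03 to 0.14).

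Of the matrix metalloproteinases and their inhibitors, 4 of 5 were lower (median -0.01), 2 of them at an unadjusted p below 0.05. Mmp2, a gelatinase, was the most abundant per exonic length (49.2 CPM per kb), at 155, 164, 162 and 185 CPM in WT against 157, 165, 160.2 and 178 CPM in Flox-labelled libraries (-0.01, 95% confidence interval -0.13 to 0.10). Mmp14, the membrane-bound protease that activates it, was at 139, 139, 147 and 156 CPM in WT against 128, 128, 127 and 146 CPM in Flox-labelled libraries (-0.13, edgeR FDR 0.364). Timp1, an inhibitor of such proteases, was at 9.07, 9.98, 9.52 and 8.52 CPM in WT against 7.68, 8.60, 7.84 and 8.18 CPM in Flox-labelled libraries (-0.20, edgeR FDR 0.421). Mmp14 overlapped through Flox-labelled library 4 and Timp1 through Flox-labelled library 2. Timp2 (0.01) and Timp3 (-0.00) had 95% confidence intervals of -0.07 to 0.10 and -0.09 to 0.09. Timp3 shares 21.3% of its exonic bases with Syn3 on the opposite strand.

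The mesenchymal receptor and transcription factor genes were lower in 4 of 4 cases (median -0.12), with 0 at an unadjusted p below 0.05. Pdgfra, a receptor tyrosine kinase of fibroblasts and their precursors, was the most abundant per exonic length (8.35 CPM per kb), at 87.3, 87.3, 78.2 and 95.5 CPM in WT against 75.2, 79.9, 77.8 and 88.1 CPM in Flox-labelled libraries (-0.12, edgeR FDR 0.512). Sox9, a transcription factor of valve and cartilage mesenchyme, was at 15.6, 16.7, 17.3 and 19.6 CPM in WT against 15.0, 13.5, 14.0 and 18.6 CPM in Flox-labelled libraries (-0.19, edgeR FDR 0.564). Both overlapped between the groups. Prrx1 was at -0.12 and Twist1 at -0.05, with interval bounds of -0.26 to 0.02 and -0.30 to 0.21.

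The members varied together from library to library. The mean over the set of log2(CPM + 0.5), relative to the mean of the 8 libraries, was 0.020, -0.038, 0.093 and 0.17 in WT libraries 1 to 4 and -0.12, -0.070, -0.12 and 0.067 in Flox-labelled libraries 1 to 4. Library 4 was thus the highest of each group, and Flox-labelled library 4 stood above WT libraries 1 and 2. By gene, library 4 was the highest of the WT group in 32 of 41 members (78.0%, against 25.3% of all tested genes), and of the Flox-labelled group in 29 of 41 (70.7%, against 29.7%). The libraries numbered 4 also had the highest Y-linked sums of their groups, at 171 and 120 CPM, and the lowest Xist, at 0.176 and 103 CPM. They had the highest fibroblast marker sums of their groups too, at 6980 and 6923 CPM. Flox-labelled library 4 also had the lowest cardiomyocyte marker sum (46858 CPM) and the smallest total (16761763 counts), while WT library 4 was lowest in neither. The part of the sex-linked difference in the level of the set was not tested beyond the fit with the Y-linked sum as a covariate given above. That fit cannot fully separate the sum from the group. The parts of cell composition and of library size were not tested. Thbs4 shared part of this order, being highest in library 4 of each group and lowest overall in Flox-labelled library 3 (-0.48), while among the WT libraries it was lowest in library 3 (0.12) rather than in library 2. The median SD within groups was 0.12 on the log2 scale over the set, from 0.040 for Sparc to 0.40 for Eln, and 0.090 over all tested genes.

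**Figure D3:**
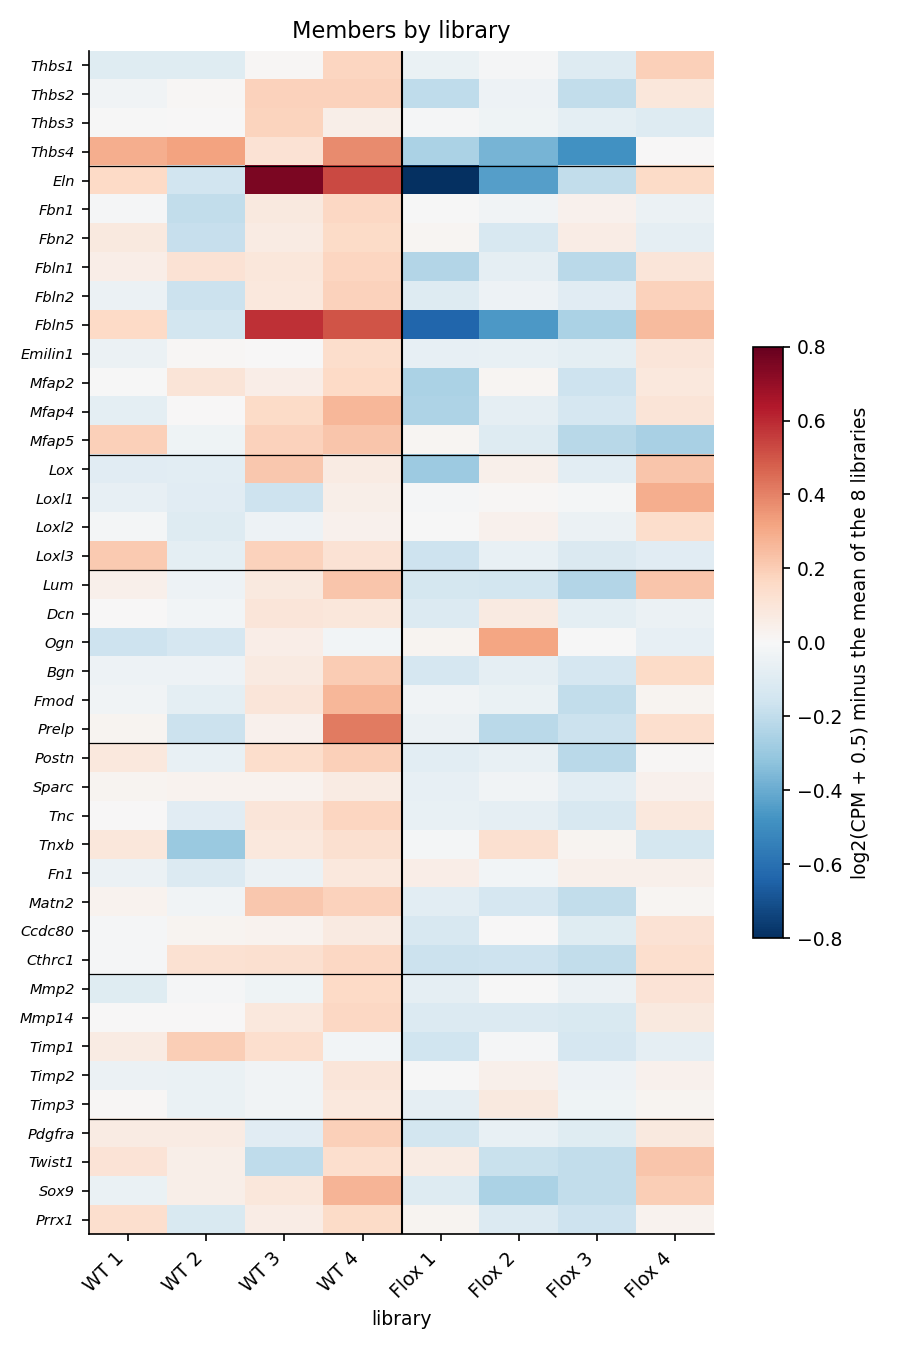
Heat map of log2(CPM + 0.5) minus the mean of the 8 libraries (colour, blue lower and red higher) for each of the 41 genes (rows, grouped by role) in each library (columns). The columns of WT library 4 and Flox-labelled library 4 are red in most rows, and the widest range belongs to Eln, from -0.80 to 0.75.

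The order of Eln was set beside single markers that were picked after their values were seen. Acan, which encodes the cartilage and valve proteoglycan aggrecan and belongs to the valve mesenchyme markers, was at 9.16, 7.59, 14.2 and 13.4 CPM in WT against 4.85, 5.54, 7.09 and 8.59 CPM in Flox-labelled libraries (-0.78, edgeR FDR 0.142). Its 8 libraries rank exactly as those of Eln do, and those of Fbln5 differ in that Flox-labelled library 4 lies above WT library 1. Acan had the largest difference of the 10 valve markers, of which 3 were higher, up to 0.33 for Scx. The summed level of these 10 markers did not follow the order of Eln. Among Flox-labelled libraries the sum peaked in library 3 (923 CPM) and was smallest in library 4 (821 CPM), where Eln peaked. Among WT libraries it peaked in library 4 (931 CPM), while library 3, where Eln peaked, held 881 CPM. The match of Acan thus describes that gene and not the valve markers as a list. Myh11, a smooth muscle marker, was at 5.97, 4.28, 10.5 and 8.48 CPM in WT against 5.21, 5.91, 4.94 and 5.89 CPM in Flox-labelled libraries (-0.42, edgeR FDR 0.55). It shared the high WT libraries 3 and 4 but not the order within the Flox-labelled group, and of the same list Acta2 was at 0.12 and Cnn1 at 0.02. How much outflow or valve tissue each ventricle carried was not measured, and its part in these values was not tested.

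**Figure D4:**
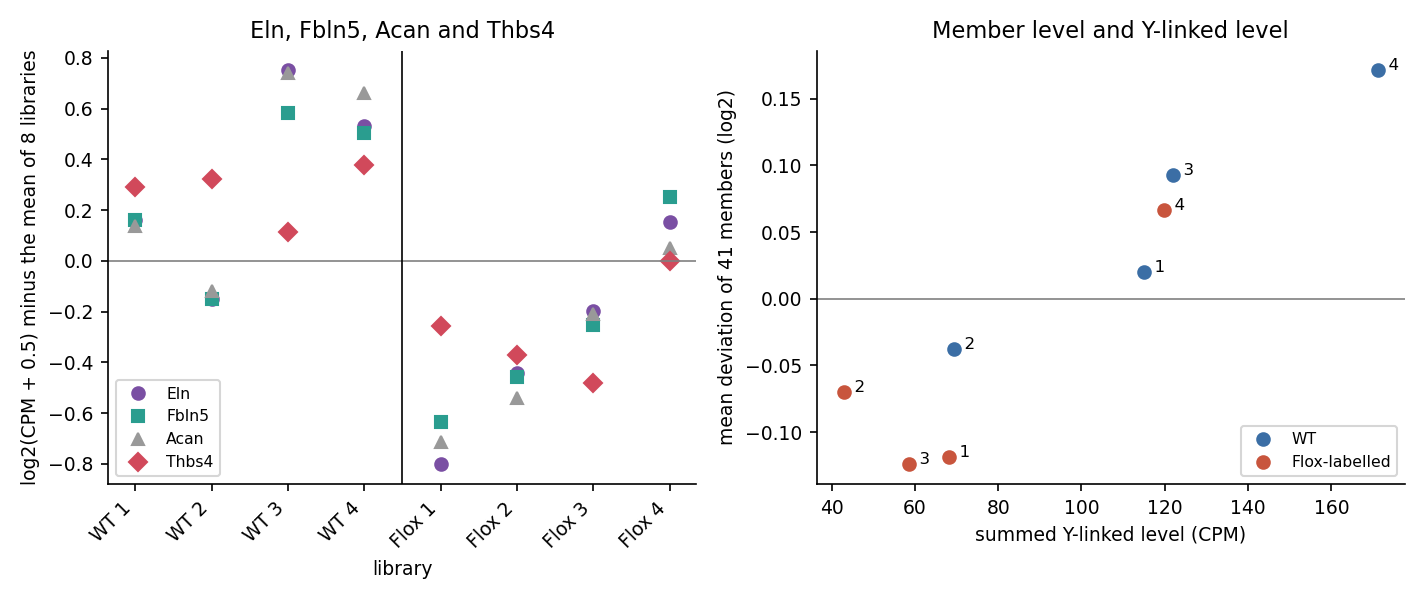
Left, log2(CPM + 0.5) minus the mean of the 8 libraries for Eln, Fbln5, Acan and Thbs4 in each library, where the first 3 genes move together between -0.80 and 0.75 and Thbs4 between -0.48 and 0.38. Right, the mean deviation of the 41 genes (log2) against the summed Y-linked level (CPM), each point 1 numbered library, where WT library 4 is highest on both axes.

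Lists of other matrix and mesenchyme genes gave no call in the main fit. Of 19 alternative fits, Spon1 (-0.22 in the main fit) was called lower in 5 and Smoc1 (-0.25) lower in 3. Plod2 (0.15) was called higher in 3. Of 40 further matrix glycoproteins and proteoglycans, 30 were tested, 22 of them lower (median -0.11), with 5 lower and 1 higher at an unadjusted p below 0.05 and 0 at FDR below 0.05. Of 35 further matrix enzymes and inhibitors, 30 were tested, 18 of them lower (median -0.03), with 3 lower and 1 higher at that p. Of 19 further mesenchymal transcription factors, 18 were tested, 11 of them lower (median -0.05), with 2 lower and 1 higher.

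No list of cell type markers held a gene at FDR below 0.05 in the main edgeR fit. Of 19 alternative fits some called single markers, among them Kdr in 4 and Acan, Tie1 and Dkk3 in 3 each. The 10 fibroblast markers, led by collagens, were lower in 6 cases (median -0.02), with 1 lower at an unadjusted p below 0.05, and the 10 valve mesenchyme markers in 7 cases (median -0.12), with 5 lower. The valve markers summed to 880 to 931 CPM in WT against 821 to 923 CPM in Flox-labelled libraries. Endothelial and endocardial markers were lower in 10 of 12 cases (median -0.08, 6 lower and 1 higher at that p), with sums of 1350 to 1401 and 1269 to 1372 CPM, smooth muscle and pericyte markers in 8 of 10 (median -0.11, 4 lower and 1 higher), with sums of 2129 to 2251 and 2194 to 2309 CPM, and atrial markers in 8 of 8 (median -0.16, 2 lower), with sums of 1662 to 1877 and 1652 to 1801 CPM. Epicardial markers were higher in 7 of 8 cases (median 0.09, 1 higher at that p), with sums of 129 to 139 and 137 to 155 CPM. Medians were 0.01 for cardiomyocyte, 0.02 for macrophage, 0.02 for platelet and 0.11 for erythroid markers. The Y-linked genes were lower in 4 of 4 cases (median -0.76), 3 of them at an unadjusted p below 0.05. Of the Schwann and neural crest markers, 2 of 6 were tested, and none of the markers was at 0 in all libraries. The part of these cell types in the level of the matrix genes was not tested.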

How the data were processed

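RNA of 8 libraries, 1 ventricle each, was prepared with a directional kit and sequenced as single reads of 60 bases, per the labels. The authors deposited RSEM 1.3.1 expected counts per gene on GRCm38 (Ensembl 91 by the name of the table). An expected count shares a read among the genes it may come from, and 18.1% of values were not whole, while 21 of the 41 members had exactly whole values in every library. The submitters' notes also name cutadapt. The aligner and the strand setting are not given in the sources used here, so overlapping genes on opposite strands are uncertain. Library totals of 16761763 to 24144272 counts set the counting precision.

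Counts were rounded, filtered with filterByExpr by group (15388 of 53465 genes) and scaled by TMM. The quasi-likelihood test of edgeR 4.0.16 in R 4.3.3 (two-sided) had group as its only term, and p-values were adjusted by Benjamini-Hochberg over the tested genes, with a threshold of 0.05 on this FDR. Standard errors and 95% intervals derive from the F statistic. Ratios were compared with exact permutation tests (scipy 1.17.1). Annotation came from GENCODE M21 (53360 identifiers matched) and promoters from RefSeq on GRCm38.p6. The labels name no batch. No library repeated another, since the smallest chi-square of any pair, divided by its degrees of freedom, was 3.04. The fit was tested on simulated data. The members and lists were chosen with earlier results of these data known. Values in every library are given for the thrombospondins, for members at an unadjusted p below 0.05 and, per role, for the most abundant member and that with the largest change. Alternatives were scaling by RLE, by upper quartile or by totals alone, testing unfiltered genes, requiring 1 CPM in 4 libraries, DESeq2 1.42.0, limma voom (3.58.1), the likelihood ratio test, each library left out, the replicate number as a block, the log2 Y-linked sum as a covariate, and an FDR of 0.1. The count at an unadjusted p and the fit without both libraries numbered 4 were added after seeing the data. Figures were drawn with matplotlib 3.10.9 (Python 3.11.15).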

Additional observations from a re-analysis of the deposited data

Results flagged for a closer look

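In 9 of 92 sets of 4 values, the extreme library was separated from its neighbours by most of the range of its group. Chance would give about 4.6 such sets. In Flox-labelled library 4, Emilin1 was at 196.9 CPM against 174.4 to 176.3 CPM in the others, Loxl1 at 69.69 CPM against 56.11 to 57.26 CPM, Cthrc1 at 12.65 CPM against 9.981 to 10.19 CPM, and Mmp14 at 145.8 CPM against 127.3 to 128.4 CPM. In WT library 4, Sparc was at 1640 CPM against 1592 to 1599 CPM and Timp2 at 188.9 CPM against 170.6 to 173.1 CPM. WT library 2 was low for Mfap5, at 6.27 CPM against 7.387 to 7.599 CPM, and for Tnxb, at 44.69 CPM against 58.23 to 59.96 CPM. In WT library 3 the log2 ratio of Thbs4 to Thbs3 was 1.898 against 2.263 to 2.292. The high values thus all lay in libraries numbered 4, which also had the highest Y-linked and fibroblast marker sums of their groups, and their cause was not tested.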

How the results depend on the processing

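Thbs4 was lower under each alternative (-0.65 to -0.44). RLE, upper quartile and total scaling and the CPM filter reversed no direction and left each count within 1.5 times. The cause of the shifts below was not tested unless the setting itself shows it. Without a filter, 6 members were called lower (Thbs4, Eln, Fbln5, Fbln1, Postn and Thbs2), 184 genes were lower and 154 higher, and 2 members were higher at an unadjusted p below 0.05. DESeq2 called 3 members (Thbs4, Fbln1 and Postn), with 95 genes lower, 103 higher and 1 member higher at that p. With limma voom 30 genes were higher and Tnxb was at 0.00527. The likelihood ratio test gave 118 genes lower, 124 higher and 1 member higher at that p. At FDR 0.1 there were 95 lower and 95 higher.

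With the Y-linked covariate, 0 members were called, 4 genes were lower and 12 higher, and at an unadjusted p below 0.05 there were 2 members lower (Thbs4 and Timp1) and 5 higher (Fn1, Loxl2, Fbln2, Thbs1 and Loxl1). The median became 0.0049, Thbs4 -0.44, Eln -0.29 and Fbln5 -0.16. The Y-linked sum differed on average between the groups, so this fit cannot fully separate it from them. Signs turned for Fbn1 (0.062), Fbn2 (0.032), Fbln2 (0.14), Emilin1 (0.028), Lox (0.057), Lum (0.037), Bgn (0.039), Prelp (0.10), Tnc (0.028), Tnxb (0.033), Ccdc80 (1.1e-05), Mmp2 (0.062), Timp3 (0.017), Twist1 (0.095), Sox9 (0.0049) and Prrx1 (0.0064). Without both libraries numbered 4, 2 members were called, 27 genes were higher, 3 members were higher at an unadjusted p below 0.05, and Fbn1 (0.039), Tnxb (0.078), Mmp2 (0.00391) and Timp3 (0.017) turned sign.

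With each library left out in turn there were 0 to 3 members called, 5 to 81 genes lower and 6 to 61 higher, and 7 to 22 members lower and 0 to 2 higher at an unadjusted p below 0.05. The 3 members came without Flox-labelled library 4 (Thbs4, Fbln1 and Fbln5). The members lower at that p numbered 7 without Flox-labelled library 1 or 3, and 9 without WT library 3 or 4. Values ranged from -0.65 to -0.49 for Thbs4, -0.055 to 0.072 for Thbs1, -0.092 to 0.029 for Fbn1, -0.097 to 0.036 for Fbln2, -0.13 to 0.031 for Lox, -0.095 to 0.038 for Tnxb, -0.051 to 0.043 for Mmp2, -0.00029 to 0.051 for Timp2, -0.030 to 0.026 for Timp3 and -0.14 to 0.013 for Twist1.

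Deviations of same-numbered libraries correlated across genes at 0.0998, 0.0474, 0.0447 and 0.121, each above those of differently numbered pairs (-0.0877 to 0.0195). Not all exceeded the 0.1 that was set as a cutoff for pairing, so the main fit left the number out. The labels do not say what the number stands for, and a shared origin was not tested. With the replicate block, 3 members were called, Thbs4, Eln (-0.65, edgeR FDR 0.0313) and Fbln5 (-0.55, edgeR FDR 0.0341), 1 was higher at an unadjusted p below 0.05, and Tnxb was at 0.000592. The ratio tests with 1 library left out or with same-numbered pairs cannot reach 0.05 (smallest sign-flip p 0.125) and give values only.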
